A study of Mus musculus with 444 samples.

Results

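The ribosomal protein genes were examined here as a family across single cells of the mouse mammary epithelium at puberty and in adulthood. Members were all genes whose symbol, looked up from the numeric gene identifier in the count files, began with Rpl or Rps followed by a digit, with Rplp followed by a digit, or was Rpsa, without the S6 kinases (Rps6k) and the Rps19 binding protein gene. The rule found 124 members among 27179 counted genes, of which 77 were the canonical subunit genes (46 of the large and 31 of the small ribosomal subunit), 13 were paralogs or retrotransposed genes with a name of their own (such as Rpl22l1 or Rps27rt) and 34 carried a pseudogene name ending in -ps. Being a rule on symbols, it left out genes such as Fau, whose ribosomal protein is made as a fusion to a ubiquitin-like protein.

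The study profiled single cells from the total mammary epithelium of FVB/NJ mice, sorted fresh and neither cultured nor treated, to follow how the epithelium differs between stages. The labels give 221 cells from pubertal mice (designated 5 weeks of age in the study) and 223 from adult mice (10 weeks). The names of the pubertal count files carry a younger age than the study gives. Both groups are the same inbred wild-type strain, no transgene or agent was used, and the cells captured on the microfluidic plates gave full-length cDNA with paired reads and without molecular identifiers. The labels do not say which animal a cell came from, so each stage counts as 1 sample: no difference between stages or cell classes was tested, and every interval below covers counting error only.

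Cells were kept with at least 100000 read pairs and 1500 detected genes, which left 171 pubertal and 152 adult cells with 133967 to 1456360 and 118429 to 1167991 read pairs. Each was thinned to 100000 read pairs on annotated nuclear genes, so that 1 read in a cell is 10 CPM (counts scaled to a total of 1000000). No 2 cell files held identical counts. Among the adult cells, those numbered 48 to 188 in their titles (107 kept) stood apart from the other adult cells (45 kept) in earlier work on these data, and adult values are therefore also given for each set. The labels name no batch for them. The median mitochondrial share of reads was 7.91% in pubertal and 11.8% in adult cells (12.2% in cells 48 to 188 and 9.00% in the others), and a median of 10 and 12 of 14 genes that respond to tissue dissociation had a read. At least 3 fibroblast markers had a read in 15 pubertal and 11 adult cells, at least 3 endothelial markers in 8 and 1, and at least 3 immune, adipocyte or pericyte markers in none. Ptprc, which defines leukocytes, lay at 0 CPM in puberty and 0.0658 CPM in adults. Other single markers did have reads: in puberty and adults the immune Cd74 had 3.22 and 21.6 CPM, the adipocyte Fabp4 716 and 804, and the fibroblast Dcn 641 and 752. In the other adult cells the immune Lyz2 had 27.3 CPM, with reads in 2.22% of them. The epithelial label was checked by 12 basal and 12 luminal markers, of which medians of 4 and 9 were detected in pubertal cells and 10 and 7 in adult cells.

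Ribosomal proteins fold around ribosomal RNA to build the small subunit, which reads the mRNA, and the large subunit, which joins amino acids. Their mRNAs are among the most abundant of most cells, are made in near balance, and begin with a run of pyrimidines through which the mTOR pathway sets their translation. Because these mRNAs are short and plentiful, mammalian genomes carry many retrotransposed copies of them, and reads of a copy and of its parent can be hard to tell apart. In the mammary gland ribosome production is known for its rise with growth and lactation.

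The copies mattered for several values below, so a coding stretch of 4 members is shown beside its closest counted copy, read from GENCODE transcripts on GRCm38, with the differing bases in capitals. The pairs were chosen after their values were seen. Rpl24 (chr16:55966275-55971437) and Gm9385 (chr9:116040531-116041121) matched at 470 of 471 aligned coding bases, and the difference, C313T counted from 1 at the A of the start codon, turns that codon of the copy into the stop TGA. Rpl29 (chr9:106428889-106431568) and Gm8210 (chr1:43189052-43189773) matched at 480 of 483 bases, with C72A in the stretch shown. Rpl7 (chr1:16101295-16104433) and Gm12174 (chr11:46727798-46728703) matched at 803 of 813 bases and differed in the stretch by G467A, G477A, G534T and A537C. Rps27 (chr3:90212667-90213648) and Rps27rt (chr9:114982366-114982739), itself a member, matched at all 159 coding bases.
Rpl24, coding bases 226 to 315: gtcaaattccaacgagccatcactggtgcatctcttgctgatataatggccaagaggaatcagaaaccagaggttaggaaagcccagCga
Gm9385: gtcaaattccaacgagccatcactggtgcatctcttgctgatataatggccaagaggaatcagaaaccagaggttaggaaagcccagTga
Rpl29, coding bases 1 to 90: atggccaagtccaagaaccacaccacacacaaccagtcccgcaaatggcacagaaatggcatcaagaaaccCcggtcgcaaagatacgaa
Gm8210: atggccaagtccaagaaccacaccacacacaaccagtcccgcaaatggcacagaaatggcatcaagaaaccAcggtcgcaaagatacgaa
Rpl7, coding bases 448 to 537: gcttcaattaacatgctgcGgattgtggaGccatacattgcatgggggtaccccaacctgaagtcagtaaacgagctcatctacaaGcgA
Gm12174: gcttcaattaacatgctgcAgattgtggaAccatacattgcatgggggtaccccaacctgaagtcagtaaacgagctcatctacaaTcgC
Rps27 and Rps27rt, coding bases 1 to 90: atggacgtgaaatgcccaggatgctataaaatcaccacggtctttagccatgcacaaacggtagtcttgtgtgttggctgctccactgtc

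Reads on the whole family made up 3.10% of nuclear reads in pubertal cells (95% exact interval 3.10 to 3.11%) and 4.04% in adult cells. Single cells spread widely. The share ran from 0.322 to 6.58% in pubertal cells, with a median of 3.08% and quartiles of 2.48 and 3.74%, and from 0.320 to 8.30% in adult cells, with a median of 3.94% and quartiles of 2.99 and 5.01%. The stages therefore overlapped, with the lower adult quartile close to the pubertal median. In adult cells 48 to 188 the share was 4.31% and in the other adult cells 3.42%, so that both adult sets lay above puberty and the gap was smaller against the second. The order held in each kind of member: canonical large-subunit genes took 1.51% of pubertal and 1.94% of adult reads, canonical small-subunit genes 1.11 and 1.46%, paralogs 0.331 and 0.450% and pseudogene-named members 0.152 and 0.196%. Without the 20 pubertal and 12 adult cells in which at least 3 fibroblast or endothelial markers had a read, the family share was 3.17 and 4.09%.

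**Figure D1:**
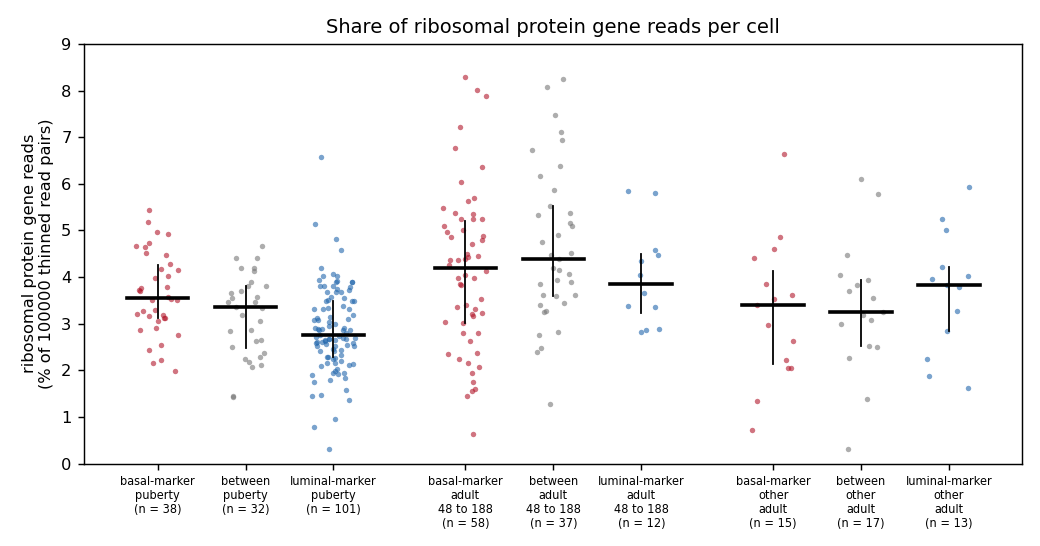
Share of thinned nuclear reads on the 124 ribosomal protein genes (percent, y axis) in each retained cell, for the marker classes of puberty, adult cells 48 to 188 and the other adult cells; each point is a cell, the horizontal bar the median and the vertical bar the quartiles. Pubertal cells range from 0.322 to 6.58% around a median of 3.08%, and adult cells from 0.320 to 8.30% around 3.94%.

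Cells were also grouped by the number of basal minus luminal markers with a read. A balance of 3 or more made a basal-marker cell, -3 or less a luminal-marker cell, and the rest were between; these are ranges of a score and not cell types, and 67 of 323 cells lay near a limit. Puberty held 38 basal-marker, 32 between and 101 luminal-marker cells, and adulthood 73, 54 and 25. Pubertal basal-marker cells gave a family share of 3.65%, between cells 3.17% and luminal-marker cells 2.88%. In adults the same classes gave 3.96, 4.25 and 3.84%, each above its pubertal class. By adult set they gave 4.14, 4.66 and 4.00% in cells 48 to 188 and 3.26, 3.35 and 3.68% in the others, where the basal-marker share lay below that of puberty and the order of the classes ran the other way. Among luminal-marker cells, those with more progenitor than mature markers gave 2.95% at puberty (21 cells) and 4.43% in adults (10 cells), and those with more mature markers 2.84% (78 cells) and 3.44% (15 cells). Across cells, the Spearman correlation of the share with the marker balance was 0.29 at puberty (171 cells) and 0.02 in adults (152 cells); with the mitochondrial share it was -0.07 and -0.01. The adult sets were not alike in this: in cells 48 to 188 (107 cells) the share had a rho of 0.06 with the mitochondrial share, -0.36 with the number of detected genes and -0.35 with the number of cell-cycle genes detected, and in the other adult cells (45 cells) -0.25 with the mitochondrial share, 0.26 with detected genes and 0.43 with read pairs. These are descriptions over cells that share plates and depth.

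Levels between genes were compared per kilobase of the annotated gene. Rpl41, which encodes the shortest protein of the ribosome, stood highest at 4166 CPM per kilobase in puberty and 4137 in adults. Every retained cell had Rpl41 reads, between 7 and 488 per 100000 in puberty and between 17 and 451 in adults, with medians of 175 and 178. Rpl32, a large-subunit protein, followed with 2513 and 3547 CPM per kilobase, and Rps27rt with 2078 and 3406. Rps14 gave 2302 and 2678, and Rpl37rt, a retrotransposed relative of Rpl37, 1840 and 2741. The median canonical member lay at 147 CPM per kilobase over both stages. At the other end stood Rpl29 at 3.42, Rpl13 at 14.4, Rpl31 at 17.3, Rpl35a at 18.9, Rps2 at 19.0 and Rpl17 at 20.4 CPM per kilobase.

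**Figure D2:**
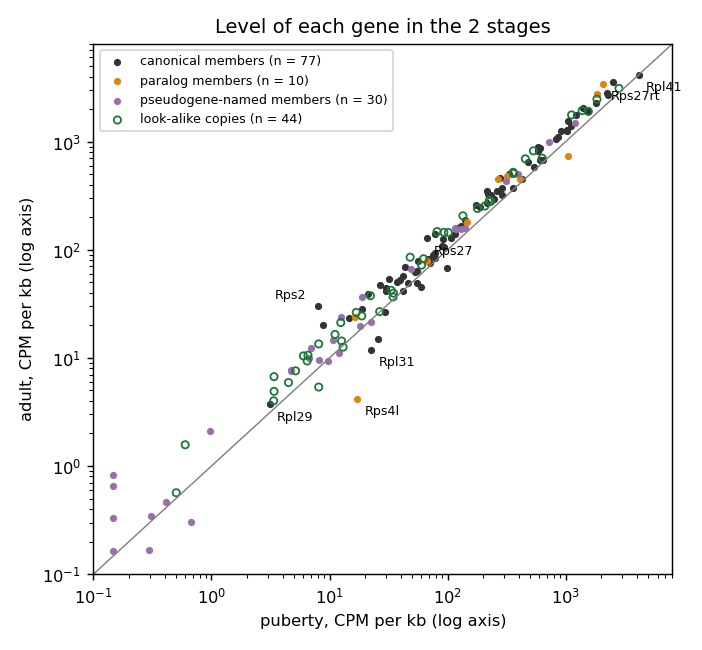
Level of each member with reads in both stages, by kind, and of 44 look-alike copies described with the copies (CPM per kilobase, both axes log), puberty on the x axis and adulthood on the y axis, with the line of equal levels. Most points lie above the line, and Rpl41 lies close to it at 4166 and 4137 CPM per kilobase.

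Sequence shared with other genes went along with part of this order among the canonical members. Of the 50-base stretches in the transcripts of a canonical member, a median of 50.7% (0 to 93.8%) also occurred in another annotated gene. The 10 canonical members with under 20% of stretches shared had a median of 902 CPM per kilobase, the 57 in the middle 127, and the 10 with at least 80% shared 99.7. The Spearman correlation of the shared percentage with the level was -0.35 over the 77 canonical genes, and with the stage ratio -0.08. With the level it was 0.78 over the 12 paralogs with a transcript and -0.20 over 31 pseudogene-named members. Genes are not independent replicates. How reads that fit several places were treated is not stated in the sources used here, so low counts of members with close copies are uncertain.

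A search for counted genes outside the family of which at least 20% of 50-base stretches matched a canonical member, and which overlapped no member, found 44, called look-alike copies here. They took 0.705% of pubertal and 0.937% of adult reads, and with the family 3.81 and 4.98%. For several members most reads were counted on the copy. Rpl24, of which Gm9385 is a near-identical copy with an early stop, had 72.7 CPM at puberty and 87.6 in adults, against 1023 and 1371 on Gm9385. Rpl29 had 2.22 and 2.63 CPM, against 146 and 185 on Gm8210. Rpl23 had 452 and 481 CPM, against 1408 and 1548 on its copy Gm9794. Rps27 had 38.1 and 73.2 CPM, against 777 and 1274 on Rps27rt, whose coding sequence above is the same. Rpl7 kept the larger part, with 1303 and 1921 CPM against 1002 and 1578 on Gm12174. The counts do not say from which gene of such a pair the RNA was made.

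**Figure D3:**
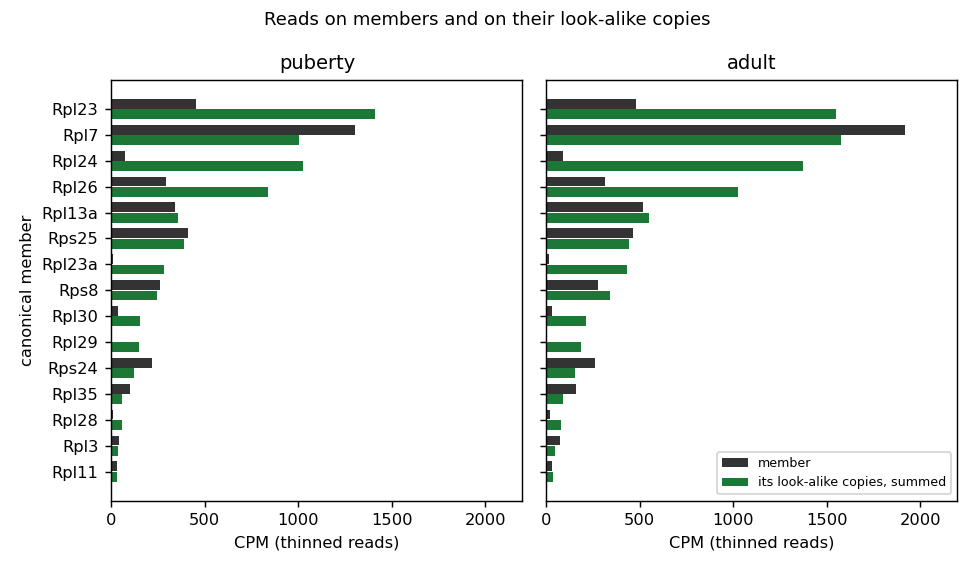
CPM (x axis) counted on 15 canonical members with many reads on look-alike copies, black bars, and on those copies summed, green bars, at puberty (left) and in adults (right). Rpl23, Rpl24 and Rpl29 have more reads on the copies than on the member, while Rpl7 has 1303 and 1921 CPM against 1002 and 1578 on its copy.

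Puberty and adulthood were compared by the log2 ratio of summed thinned reads, puberty over adult, for genes that reached 20 CPM in either stage. Of the 124 members 92 passed (72 canonical, 9 paralogs and 11 pseudogene-named), 28 had reads below that limit and 4 (Rpl10l, Rpl39l, Rplp2-ps1 and Rps12-ps13) had none. The canonical genes under the limit were Rpl13, Rpl23a, Rpl28, Rpl29 and Rpl35a. Of the 92, 82 were higher in adults and 10 in puberty, against 46.4% and 53.6% of all 7781 genes that passed. The members' median was -0.35, against 0.09 over all genes. The differences were small: 1 member exceeded 2-fold, where 34% of all genes did, and 17 exceeded 1.5-fold, where 55.6% of all genes did. Adult levels were the higher for 34 of 41 large-subunit genes, 30 of 31 small-subunit genes, 8 of 9 paralogs and 10 of 11 pseudogene-named members. Scaling by TMM moved the median of all genes from 0.09 to -0.03 and that of the members to -0.48, a shift that is the same for every gene.

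**Figure D4:**
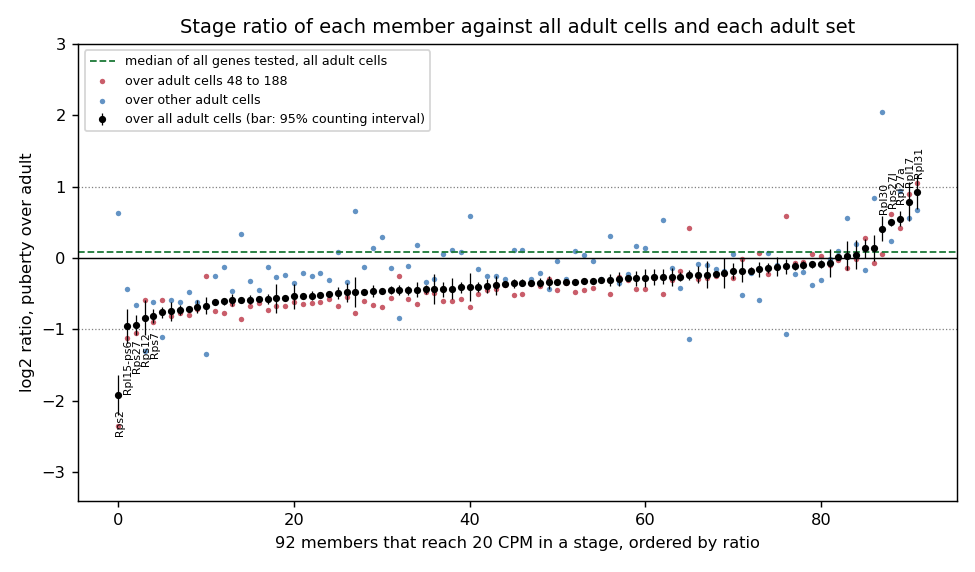
Log2 ratio of puberty over adult (y axis) for the 92 members that passed, in order of their ratio (x axis): black points with 95% counting intervals are against all adult cells, red against cells 48 to 188 and blue against the other adult cells; the dashed line is the median of all genes and dotted lines mark 2-fold. Most black points lie below 0, and Rps2 lies at -2.35 against cells 48 to 188 and at 0.64 against the others.

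The direction depended on the adult cells used for some members. Against adult cells 48 to 188, 82 of 93 members were higher in adults (44.6% of all genes) with a median of -0.45, and 4 exceeded 2-fold (41.5% of all genes). Against the other adult cells, 61 of 89 were higher in adults (46.6% of all genes) with a median of -0.19, and 6 exceeded 2-fold (48.9%). The pseudogene-named members went the other way against these cells, with 3 of 10 higher in adults and a median of 0.11. Between the adult sets themselves, 73 of 91 members were higher in cells 48 to 188 (49.1% of all genes), with a median log2 ratio of 0.26. Within basal-marker cells 60 of 92 members were higher in adults (47.2% of all genes; median -0.13), and within luminal-marker cells 81 of 92 (45.2% of all genes; median -0.46). The basal-marker figure pools both adult sets, of which the others had a lower family share than pubertal basal-marker cells. Length was compared too: members shorter than 600 bases had a median of -0.35 (38 genes) and other genes of that length -0.07 (175 genes), and from 600 to 1000 bases the medians were -0.35 (34 genes) and 0.02 (480 genes). Against the other adult cells the gap was narrower, with -0.22 for members and -0.14 for other genes below 600 bases and -0.15 and 0.03 from 600 to 1000 bases.

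Among the members detected in at least 25% of cells of a stage, Rps2, a small-subunit protein near the mRNA entry channel, had the lowest ratio. It had 7.95 CPM in pubertal cells, 40.5 in adult cells 48 to 188 and 5.11 in the other adult cells, and 36.3, 80.4 and 35.6% of these cells had a read. Puberty and the second adult set were thus close and cells 48 to 188 stood high, which gave log2 ratios of -1.92 against all adult cells (95% interval -2.20 to -1.64), -2.35 against cells 48 to 188 and 0.64 against the others. Of the 50-base stretches of Rps2, 71.3% also occurred in another gene, against a canonical median of 50.7%, so its low counts are uncertain.

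Rps27, a zinc-finger protein of the small subunit, had 38.1 CPM in puberty, 78.7 in adult cells 48 to 188 and 60.0 in the others, with a median of 2 reads per pubertal and 5 per adult cell. Its ratio of -0.94 (-1.08 to -0.80) had the same direction against each set. Its twin Rps27rt moved alike, from 777 CPM in puberty to 1356 and 1077 in the adult sets, a ratio of -0.71 against all adult cells. Rps7, also of the small subunit, had 75.8 CPM in puberty and 140.5 and 116 in the adult sets (-0.81), with medians of 7 and 10 reads per cell over each stage. The pseudogene-named Rpl15-ps6 had 13.8 CPM in puberty and 26.6 in adults (-0.95). Rps12 had 13.7 CPM in puberty and 24.5 in adults (-0.83), but a single adult cell held 37.9% of its adult reads, it was detected in 25.7 and 30.9% of cells, and within luminal-marker cells its ratio was 2.55.

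Rpl31, a large-subunit protein close to the exit of the nascent chain, had the highest ratio. It had 28.4 CPM in puberty, 13.7 in adult cells 48 to 188 and 17.8 in the others, a ratio of 0.93 (0.70 to 1.16). The share of cells with a read was 49.1% at puberty and 46.7% in adults, so the stages differed in the reads per positive cell more than in the number of such cells. Rps27l, the p53-responsive relative of Rps27, had 485 CPM in puberty and 315 and 410 in the adult sets, with a median of 38 reads per pubertal and 18 per adult cell and a ratio of 0.50 (0.45 to 0.55). It kept this direction, and Rps27 the opposite one, in all 12 alternatives run for single genes. Among these, dropping the 20 CPM limit and adding look-alike copies could not change either ratio.

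The other members with high ratios rested on few cells or on 1 adult set. Rpl17 had 20.1 CPM in puberty and 11.6 in adults (0.79), with 25.9% of its pubertal reads in 1 cell and a ratio of -0.52 within basal-marker cells. Rpl27a had 110 and 74.7 CPM (0.55), with 35.8% of pubertal and 21.2% of adult reads in 1 cell each and a median of 1 read per cell in both stages. Rpl30 had 37.6 CPM in puberty, 36.3 in adult cells 48 to 188 and 9.11 in the others (0.41 against all adult cells). In the others 1 cell held 48.8% of the reads, without which 9.11 became 4.77, and with its 3 look-alike copies added the ratio became -0.34. Rpl11, which binds Mdm2 when free of the ribosome, had 32.6 and 29.5 CPM (0.14), at 34.3 and 18.2 in the adult sets; the ratio was -0.07 against cells 48 to 188, -0.07 within luminal-marker cells and -0.12 with look-alike copies added. Over all members that passed, the highest cell held a median of 3.20% of pubertal and 3.83% of adult reads, and 5 members in each stage had over 20% of their reads in 1 cell.

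The genes for proteins of the stalk, which recruits elongation factors, had more reads in adults when both adult sets were pooled. Rplp0, its base, had 1244 CPM in puberty and 1712 in adults (-0.46), Rplp1 524 and 652 (-0.31) and Rplp2 212 and 286 (-0.44). The adult sets were not alike for them: Rplp0 had 2006 CPM in cells 48 to 188 and 1013 in the others, which lay below puberty. Rpsa, also known as the laminin receptor precursor, had 399 and 508 CPM (-0.35), at 567 and 368 in the adult sets. Rps6, the substrate of the S6 kinases, had 60.5 and 96.1 CPM (-0.67); 1 of the other adult cells held 48.5% of that set's reads. Rps27a, made as a fusion to ubiquitin, had 46.3 and 64.6 CPM (-0.48). Rpl41 had 1870 and 1857 CPM, a ratio of 0.01 (-0.01 to 0.03).

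Of the 8 paralogs with a named parent 3 were detected in at least 50% of cells of both stages. Rpl22l1, which can replace Rpl22 in the ribosome, had reads in 87.1% of the cells at puberty and in 92.1% of the adult ones. Per kilobase of annotated lengths of 477 and 2040 bases, Rpl22l1 had 267 and 452 CPM, above Rpl22 at 130 and 165. Not divided by length, Rpl22 was the higher, with 265 and 336 CPM against 127 and 216, and was detected in 97.1 and 94.7% of cells. The ratio of Rpl22l1 was -0.76 (-0.84 to -0.68), and the adult sets gave 192 and 273 CPM against 127 in puberty. A single cell among the other adult cells held 36.8% of that set's reads, and without it the 273 became 177. Rpl36al was detected in 91.8 and 85.5% of cells and stood at 407 and 448 CPM per kilobase, where Rpl36a stood at 53.0 and 62.2. Rps27l was detected in 95.3 and 86.2% of cells and stood at 1046 and 739 CPM per kilobase, where Rps27 stood at 66.3 and 127 and its twin Rps27rt, whose reads cannot be told from it in the coding part, at 2078 and 3406. Rpl7l1, which acts in the assembly of the large subunit, was detected in 50.9 and 44.1% of cells, where Rpl7 was detected in 98.8 and 99.3%.

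The tissue-restricted relatives were near or at 0. Rpl3l, known from heart and skeletal muscle, had 1 read in 1 of 171 pubertal cells and none in 152 adult cells, which allows a share of up to 1.97%. Rpl10l and Rpl39l, known from the testis, had no thinned read in 171 pubertal cells (up to 1.75%) or 152 adult cells; before thinning 1 pubertal cell had a read of Rpl10l. The parents Rpl3, Rpl10 and Rpl39 were detected in 82.5, 54.4 and 67.3% of pubertal and 89.5, 67.8 and 61.2% of adult cells. Rps4l had a read in 13 of 171 cells at puberty (7.60%) and in 9 of 152 adult ones (5.92%), and Rps4x in 89.5 and 92.8%.

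The basal and luminal classes were compared within each stage. At puberty 66 of 90 members were higher in basal-marker cells (48.5% of all genes), with a median log2 ratio of basal over luminal of 0.30 against -0.05 over all genes, and 7 exceeded 2-fold (50.9% of all genes). In adults 37 of 91 were higher in basal-marker cells (49.6% of all genes), with a median of -0.08, and 4 exceeded 2-fold (62% of all genes). Adult cells 48 to 188 had 46 of 92 members on the basal side (55.7% of all genes) and a median of 0.01, and the other adult cells 29 of 89 (48.2% of all genes) and a median of -0.27. The classes were not alike between the stages. Luminal-marker cells had a median of 1 of 12 basal markers at puberty and 4 in adults. Basal-marker cells had a median of 4.5 of 12 luminal markers at puberty and 6 in adults. Whether the stages differ in this contrast was not tested.

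**Figure D5:**
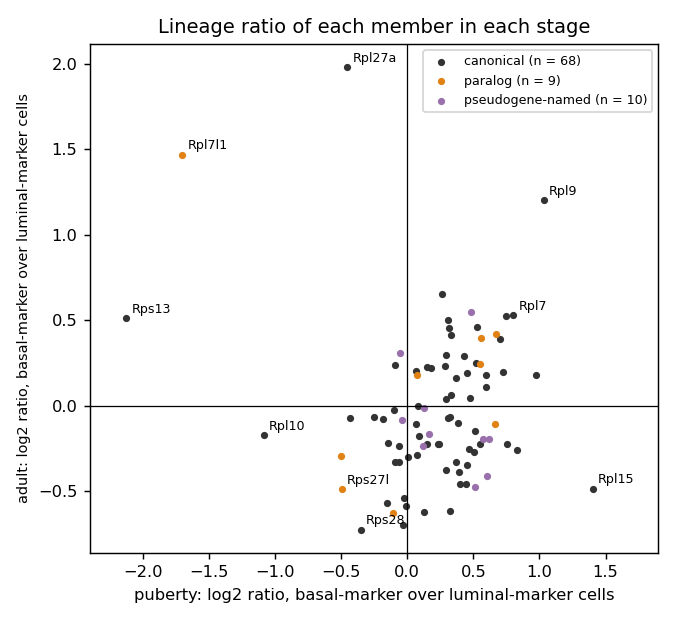
Log2 ratio of basal-marker over luminal-marker cells for each member that passed in both stages, puberty on the x axis and adulthood on the y axis, colored by kind of member. Rpl9 and Rpl7 lie to the basal side on both axes and Rps28 and Rps27l to the luminal side, while Rps13 and Rpl27a change side between stages.

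Among the members with the highest mean ratio over the stages, Rpl9, a large-subunit protein, had 79.2 CPM in pubertal basal-marker and 38.7 in luminal-marker cells, and 73.6 and 32.0 in adults, log2 ratios of 1.03 (0.81 to 1.25) and 1.20 (0.86 to 1.56). Rpl7, of the large subunit, had 1806 and 1037 CPM at puberty and 2168 and 1503 in adults (0.80 and 0.53), and its copy Gm12174 went the same way with 1493 and 758 at puberty and 1890 and 1138 in adults. The medians per cell for Rpl7 were 171 reads in pubertal basal-marker and 98 in luminal-marker cells, with quartiles of 118.5 to 219 and 60 to 135, which overlapped in part. Rps4x, the X-linked form of the small-subunit protein, had 279 and 166 CPM at puberty (0.75), where 1 basal-marker cell held 38.1% of the reads, and 282 and 196 in adults (0.53).

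Rps27l and Rps28, both of the small subunit, lay on the luminal side. Rps27l had 386 CPM in pubertal basal-marker and 545 in luminal-marker cells (-0.50), and 330 and 462 in adults (-0.49), although within adult cells 48 to 188 its ratio was 0.29. Rps28 had 79.2 and 101 CPM at puberty (-0.35) and 81.4 and 134 in adults (-0.72). Rps13 had 7.37 and 32.2 CPM at puberty (-2.13) and 27.9 and 19.6 in adults (0.51). Rpl10, which completes the large subunit late in its maturation, had 30.0 and 63.7 CPM at puberty (-1.09) and 74.2 and 83.6 in adults (-0.17), where 1 luminal-marker cell held 48.8% of the reads. Rpl27a had a ratio of -0.46 at puberty, where 1 luminal-marker cell held 53.6% of the reads, and 1.98 in adults. The widest scatter in the plot of lineage ratios also included Rpl7l1 (-1.70 and 1.47) and Rpl15 (1.40 and -0.48), named after their values were seen; 1 cell held 45.5% of the Rpl15 reads of adult basal-marker cells and 1 held 55.3% of those of adult luminal-marker cells.

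The members were also ordered by how closely each followed the summed share of the other members from cell to cell, as Spearman's rho within a stage among the 1379 genes detected in at least 50% of cells of both stages. The 89 members among them had a median rho of 0.36 at puberty (171 cells) and 0.47 in adults (152 cells), against 0.02 and -0.01 over all these genes, and 62 of the 100 highest genes were members. Of the 10 genes outside the family with the highest rho, 7 were look-alike copies of members, among them Gm12174 of Rpl7, Gm9385 of Rpl24, Gm4342 of Rpl35, Gm9794 of Rpl23 and Gm15772 of Rpl26. The other 3 were Gm5148 (0.59 and 0.64), Gm8680 (0.59 and 0.74) and Mir682 (0.53 and 0.70). The members least like the rest were Rpl10 (0.04 and 0.00), Rps13 (0.02 and 0.22), Rpl27a (0.05 and 0.23), Rpl36al (0.05 and 0.14), Rps27l (0.10 and 0.19) and Rpl15 (0.20 and 0.10). For Rps13 this depended on the adult set, with 0.12 in cells 48 to 188 and 0.44 in the others, where the members' median was 0.43. All values of a cell come from 1 library and 1 fixed total.

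The start sites of Rps2 and Rpl31, the members with the lowest and highest stage ratio, and of the twins Rps27 and Rps27rt are shown from 50 bases before to 30 after the RefSeq start on GRCm38.p6, sense strand, with letters that match CTTTCC or CCGGAAG in capitals. For Rps2 the start used lies inside the annotated gene interval (chr17:24718121-24721927) and not at its first base.
Rps2, chr17:24720013-24720092, plus strand: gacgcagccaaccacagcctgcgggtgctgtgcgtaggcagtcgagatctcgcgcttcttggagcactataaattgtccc
Rps27, chr3:90213619-90213698, minus strand: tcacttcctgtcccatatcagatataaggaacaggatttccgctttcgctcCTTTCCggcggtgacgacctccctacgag
Rps27rt, chr9:114982710-114982789, minus strand: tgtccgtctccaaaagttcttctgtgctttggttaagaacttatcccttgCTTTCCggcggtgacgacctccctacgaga
Rpl31, chr1:39367801-39367880, plus strand: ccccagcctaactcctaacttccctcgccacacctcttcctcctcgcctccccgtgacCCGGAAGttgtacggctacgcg

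Rps27 and Rps27rt thus share the CTTTCC run and the bases after it, while the bases before it differ. In windows from 250 bases before to 50 after each start, on both strands, CTTTCC was found in 48.8% of 82 windows of 70 members and in 26.6% of all 32851 windows. The letters CCGGAAG, the core of the sites of ETS factors, were found in 32.9 and 8.86%, and AAGATGGC, the core of YY1 sites, in 9.76 and 2.75%; CCGGAAG and AAGATGGC can overlap by their shared AAG. Within 30 bases of the start the shares were 20.7 and 5.54% for CTTTCC, 15.9 and 3.84% for CCGGAAG and 4.88 and 0.898% for AAGATGGC. Canonical members that passed, with and without CTTTCC in a window, had median ratios of puberty over adult of -0.34 (27 genes) and -0.41 (27 genes), and with and without CCGGAAG -0.32 (24 genes) and -0.35 (30 genes). A match of letters is a description and not a site.

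Other genes of the translation machinery were read from lists. Of 20 listed translation factors and other mRNAs with a terminal pyrimidine run, 17 were higher in adults (46.4% of all genes), with a median ratio of -0.28. Eef1a1, which brings aminoacyl-tRNA to the ribosome, had 4438 CPM in puberty and 6036 in adults, at 7040 in cells 48 to 188 and 3649 in the others, and against these others 9 of 20 were higher in adults (46.6% of all genes; median 0.06). Of 19 ribosome biogenesis genes that passed, 12 were higher in adults (46.4% of all genes; median -0.38), among them the nucleolar proteins Ncl (1240 and 1890 CPM) and Nop58 (353 and 641 CPM). Against the other adult cells 6 of 17 were higher in adults (46.6% of all genes; median 0.22). Of 8 RNA polymerase I genes 5 were higher in adults (46.4% of all genes; median -0.30). Against cells 48 to 188 it was 5 of 8 (44.6% of all genes), with a median of -0.23. Against the other adult cells it was 7 of 9 (46.6% of all genes), with a median of -0.64. Of 11 genes that control ribosomal protein synthesis 5 were higher in adults, a share near the 46.4% of all genes (median 0.23). This list depended on the adult set. Against cells 48 to 188, 5 of 11 were higher in adults (44.6% of all genes), with a median of 0.03. Against the other adult cells 2 of 11 were (46.6% of all genes), with a median of 0.84. In this list Myc, a transcription factor that drives ribosome production, had 187 CPM in puberty and 103 in adults, and Mtor, the kinase upstream of the S6 kinases, 16.6 and 37.3. The mitochondrial ribosomal proteins, which build a separate ribosome, had 28 of 74 higher in adults (46.4% of all genes) and a median of 0.26. Against cells 48 to 188 these were 23 of 72 (44.6% of all genes) and 0.47, and against the other adult cells 31 of 70 (46.6% of all genes) and 0.12, near the 0.11 of all genes. For comparison, 14 of 14 cell-cycle genes were higher in puberty (median 1.09; 53.6% of all genes) and 13 of 14 dissociation-response genes in adults (46.4% of all genes; median -0.66); their part in the ribosomal protein values was not tested.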

How the data were processed

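The deposited files held raw read pair counts per gene and cell; the authors aligned reads to mm10 with Subread and counted them with featureCounts over RefSeq genes (tool named in the submitters' processing notes; version, strand setting and treatment of multi-mapping reads not given in the sources used here). Identifiers were matched to symbols (25275 of 27179; unmatched ones held 1.84% of reads), 15 mitochondrial genes were set aside, and cells were thinned with seed 1 (Python 3.11.15; TMM in edgeR 4.0.16, R 4.3.3). Ratios used a floor of 3 reads per group and exact conditional binomial 95% intervals. A gene was called past 2-fold. The depth of retained cells had medians of 378701 (puberty) and 408360 (adult) read pairs. No doublet caller was run and a combined table was not used. Without strand, overlapping and antisense genes, and small nucleolar RNAs in introns of members, cannot be told apart from them.

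Members and gene lists were chosen with earlier results of these data known. Named genes were the 6 highest members per kilobase, 6 at each end of the stage ratio, 4 at each end of the basal over luminal ratio, 8 paralog pairs, the members least and other genes most like the family share, and 7 set members; some of these are not reported here. The copy pairs and start windows were chosen after seeing values, as were the look-alike and stromal-marker alternatives. Ratios were tested on simulated group sums with counting error only. The simulation held no spread of these sums between cells or animals, so it does not cover such spread in the real data. Protein sequences were not used here.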

Additional observations from a re-analysis of the deposited data

Results flagged for a closer look

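The median member log2 ratio of basal-marker over luminal-marker cells differed in sign between the stages, at 0.30 at puberty and -0.081 in adults, and the difference was not tested. The adult value lies near 0. Adult classes were also less far apart in markers, with a median of 4 basal markers in luminal-marker cells against 1 at puberty. The log2 ratio of the summed family share was 0.34 at puberty and 0.05 over all adult cells. By adult set it was 0.05 in cells 48 to 188 and -0.18, on the luminal side, in the other adult cells. Rps2 went opposite ways against the adult sets, with a log2 ratio of puberty over adult of -2.35 for cells 48 to 188 and 0.64 for the other adult cells, which was not tested either. Outside the members, reads on look-alike copies took 0.705% of pubertal and 0.937% of adult nuclear reads; 26 of the 44 copies passed 20 CPM, all 26 were higher in adults, where 46.4% of all genes were, and their median ratio was -0.46 with 0 past 2-fold.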

How the results depend on the processing

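The log2 ratio of the family share, puberty over adult, was -0.38. It was -0.43 without thinning, -0.48 with stricter cell limits, -0.47 and -0.14 against adult cells 48 to 188 and the others, -0.37 for canonical members, -0.39 with look-alike copies and -0.37 without stromal-marker cells. The median member ratio of -0.35 became -0.48 with TMM, -0.33 with a prior of 10, -0.43 without thinning, -0.37 without each gene's highest cell, -0.45 and -0.19 against the adult sets, -0.13 and -0.46 in basal-marker and luminal-marker cells, -0.34 without stromal-marker cells and -0.36 with copies added. Past 2-fold stood 1 member (34% of all genes), 3 with TMM (34%) and 4 and 6 against the adult sets (41.5 and 48.9%). Past a fold of 1.5 stood 17 (55.6% of all genes). The pubertal basal over luminal median of 0.30 was 0.23 with a balance of 1, 0.23 with 5 and 0.34 with TMM; the adult one of -0.08 was -0.0029, -0.10 and -0.013 under these, -0.27 in the other adult cells and reversed to 0.011 in cells 48 to 188. Paralogs detected in at least 50% of cells of both stages numbered 3, and 4 without thinning. Rps2 reversed to 0.64 against the other adult cells. The causes were not tested. No paired analysis was possible because cell numbers shared by the stages only name cells and no test was made.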
